A study of Drosophila melanogaster with 16 samples.

Results

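The genes described here are 10 maternal patterning genes, whose RNAs are loaded into the oocyte or control RNAs that are: *nanos* (*nos*), *oskar* (*osk*), *bicoid* (*bcd*), *gurken* (*grk*), *staufen* (*stau*), *oo18 RNA-binding protein* (*orb*), *polar granule component* (*pgc*), *Bicaudal C* (*BicC*), *exuperantia* (*exu*) and *Cyclin B* (*CycB*). They were chosen by FlyBase symbol as known oocyte genes, with earlier results of these data known, and are 10 of the 17490 genes in the count table. RNA was sequenced, after depletion of ribosomal RNA, from whole *Drosophila melanogaster* adults of the deletion lines *208-ΔA*, *208-ΔF* and *208-ΔG*, and of the line in which these alleles were made, DGRP_208. Each allele is an independent CRISPR-*Cas9* deletion that removes exon 1 of *Uhg4*, a long noncoding RNA gene that hosts snoRNAs, together with its promoter, and each stock descends from 1 such deletion and is kept over a *CyO* balancer. The study describes the sequenced deletion flies as null genotypes with near-complete loss of *Uhg4* RNA. It used homozygous flies in behavioural assays unless stated otherwise, and its RNA methods do not name the zygosity. All 4 lines share the DGRP_208 background, which is inbred and free of *Wolbachia*. Every line gave 2 libraries of females and 2 of males, 16 in all, each from 30 pooled flies aged 3 to 5 days. The question is whether flies with the *Uhg4* promoter and exon 1 deleted hold other amounts of these RNAs than DGRP_208 flies of the same sex. In whole flies, fewer germ line cells and less RNA per cell cannot be told apart.

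In the fly ovary, nurse cells make these RNAs and pass them to the oocyte, where many are held untranslated until they reach their place. *bcd* RNA collects at the anterior pole, where its protein later forms the gradient that patterns the head and thorax. *osk* RNA collects at the posterior pole, where Oskar protein builds the germ plasm, which then holds *nos*, *pgc* and *CycB* RNA for the abdomen and the future germ cells. *grk* RNA lies beside the oocyte nucleus, and Gurken signals from there to the follicle cells to set the dorsal side. Stau and Exu act in RNA localization, Orb activates translation of RNAs such as *osk* and *grk*, and BicC represses translation. Several of these genes are also transcribed in the testis.

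The libraries held 13902521 to 51954693 counted reads. The level of a gene is its CPM, the count after scaling to library size, or its RPKM, which is CPM per kilobase of exon. *Uhg4* itself had 4 to 23 reads in the 6 deletion female libraries against 276 and 121 in DGRP_208 females, and 9 to 40 reads in the 6 deletion male libraries against 66 and 33 in DGRP_208 males. In CPM the deletion males, at 0.213 to 1.02, overlapped with DGRP_208 male replicate 2 at 0.974, so *Uhg4* does not set that library apart from the deletion males. Reads of the 10 genes made up 0.167% to 0.275% of counts in 7 female libraries, 0.0983% in *208-ΔG* female replicate 1, and 0.0934% to 0.132% in males. The median level of 185 chemoreceptor genes, which most cells keep silent and which serve here as a measure of background reads, ran between 0.35 and 5.92 RPKM of counted reads, without further scaling, with the highest value in *208-ΔG* female replicate 1. A pair of libraries held transcripts of the other sex. *208-ΔA* male replicate 2 had a summed yolk protein level of 1338 CPM, against 58.5 to 284 CPM in other male libraries. Its summed vitelline membrane level was 209 CPM, while the highest in another male was 50.1 CPM. For the chorion genes of late egg chambers *208-ΔA* male replicate 2 summed to 16.2 CPM, within the 8.9 to 81.6 CPM of other males. *208-ΔF* female replicate 2 had a summed seminal fluid level of 94.1 CPM, where the other female libraries had 8.38 to 13.6 CPM. The main results that rest on these libraries are given with and without them.

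The counts of *BicC* do not measure the gene as a whole. *BicC* lies on chromosome arm 2L (dm6, 16042047 to 16048757, forward strand). Another annotated gene on the same strand, *CG45084*, covers 4311 of its 4547 exonic bases and has no read in any library. The only stretch of *BicC* free of it is 236 bases long (2L, 16044552 to 16044787). The *BicC* row held 0 to 25 reads in females and 79 to 179 in males, so its values are given only as reads from that stretch, and no deletion effect is described for it. They were 7 and 3 reads in *208-ΔA* females, 2 and 25 in *208-ΔF* females, 0 and 5 in *208-ΔG* females, and 9 and 6 in DGRP_208 females. The 0 reads were in *208-ΔG* female replicate 1 and allow up to 3 reads there, or 0.146 CPM, by counting error alone.

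The other 9 genes have no such neighbour among the counted genes. *nos* (3R, 19157238 to 19160202), *osk* (3R, 8935126 to 8938395), *bcd* (3R, 6755842 to 6759466) and *orb* (3R, 23260610 to 23280856) lie on the right arm of chromosome 3. *grk* (2L, 8431086 to 8433598) lies on 2L. *stau* (2R, 18117896 to 18125779), *pgc* (2R, 22330200 to 22332813), *exu* (2R, 20667427 to 20671083) and *CycB* (2R, 22803521 to 22806948) lie on 2R. Whether counting used the strand is not given in the sources used here, so reads of antisense neighbours may be shared in part. The longest overlap is that of *pgc*, with 569 of its 1212 exonic bases antisense to *T3dh*. *exu* shares 397 exonic bases with *galla-1*, *nos* 269 with *CG11779* and 104 with *Nsun5*, *grk* 212 with *Akap200*, and *osk* 162 with an antisense RNA.

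*osk* was the most abundant of the genes per length in females, at a mean of 212 RPKM over the 8 female libraries. Its level was 1175 and 876 CPM in *208-ΔA* females, 687 and 467 in *208-ΔF* females, 161 and 559 in *208-ΔG* females, and 468 and 633 in DGRP_208 females. Both *208-ΔA* females and *208-ΔF* female replicate 1 lay above both DGRP_208 libraries, *208-ΔF* female replicate 2 and *208-ΔG* female replicate 1 lay below them, and the groups overlapped. In males, *osk* was at 1.96 and 175 CPM in *208-ΔA*, 17.9 and 2.63 in *208-ΔF*, 26.9 and 19.4 in *208-ΔG*, and 2.81 and 18.8 in DGRP_208. The 175 CPM came from *208-ΔA* male replicate 2, the male library with yolk and vitelline membrane transcripts.

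*nos*, whose protein represses translation at the posterior and keeps germ cells from somatic fates, had the lowest log2 fold change of the genes between deletion and DGRP_208 females. Its level was 70.0 and 78.7 CPM in *208-ΔA* females, 59.1 and 29.6 in *208-ΔF* females, 12.1 and 47.7 in *208-ΔG* females, and 66.3 and 117 in DGRP_208 females. Both *208-ΔA* females exceeded DGRP_208 female replicate 1, so the groups overlapped, and the 4 *208-ΔF* and *208-ΔG* females lay below both DGRP_208 libraries. In males, *nos* had 3.45 and 16.6 CPM in *208-ΔA*, 3.91 and 4.52 in *208-ΔF*, 5.43 and 6.83 in *208-ΔG*, and 1.66 and 4.34 in DGRP_208.

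*pgc*, whose small protein silences transcription in the primordial germ cells, had 99.3 and 95.7 CPM in *208-ΔA* females, 65.2 and 38.6 in *208-ΔF* females, 10.9 and 50.1 in *208-ΔG* females, and 36.3 and 45.3 in DGRP_208 females. In females, 4 of the 6 deletion libraries lay above both DGRP_208 libraries and 1 lay below both. In males it was near 0, with 0.198 to 1.81 CPM in 7 of the 8 libraries and 20.5 CPM in *208-ΔA* male replicate 2.

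*CycB*, the B-type cyclin that drives mitosis and is stored in the germ plasm, had 913 and 752 CPM in *208-ΔA* females, 703 and 394 in *208-ΔF* females, 137 and 527 in *208-ΔG* females, and 512 and 771 in DGRP_208 females. Its level in males was 66.2 and 192 CPM in *208-ΔA*, 62.4 and 67.8 in *208-ΔF*, 47.7 and 48.8 in *208-ΔG*, and 49.6 and 42.8 in DGRP_208. The deletion groups overlapped with DGRP_208 in both sexes.

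*bcd* and *grk* varied least among the female libraries. *bcd* had 34.9 and 37.7 CPM in *208-ΔA* females, 29.0 and 26.8 in *208-ΔF* females, 27.5 and 30.1 in *208-ΔG* females, and 34.7 and 41.0 in DGRP_208 females. *grk* had 32.3 and 26.5 CPM in *208-ΔA* females, 23.9 and 25.3 in *208-ΔF* females, 32.7 and 26.5 in *208-ΔG* females, and 27.0 and 22.7 in DGRP_208 females. Here *208-ΔG* female replicate 1, which was lowest for *osk*, *nos*, *pgc*, *CycB*, *orb*, *stau* and *exu*, was second lowest for *bcd* and highest for *grk*. Its chemoreceptor level was also the highest of all libraries, and the part of background reads in these values was not tested.

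Among the localization and translation factors, *orb* had 675 and 473 CPM in *208-ΔA* females, 407 and 287 in *208-ΔF* females, 133 and 348 in *208-ΔG* females, and 283 and 351 in DGRP_208 females. *stau* had 315 and 287 CPM in *208-ΔA* females, 316 and 202 in *208-ΔF* females, 107 and 203 in *208-ΔG* females, and 184 and 278 in DGRP_208 females. *exu* had 98.6 and 112 CPM in *208-ΔA* females, 88.2 and 80.0 in *208-ΔF* females, 46.6 and 84.0 in *208-ΔG* females, and 99.6 and 137 in DGRP_208 females. For each of these 3 genes the deletion females overlapped with DGRP_208. Male levels were similar to female ones for *orb* (160 to 369 CPM over the 8 male libraries) and *stau* (102 to 261 CPM), and higher for *exu* (286 to 898 CPM).

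**Figure D1:**
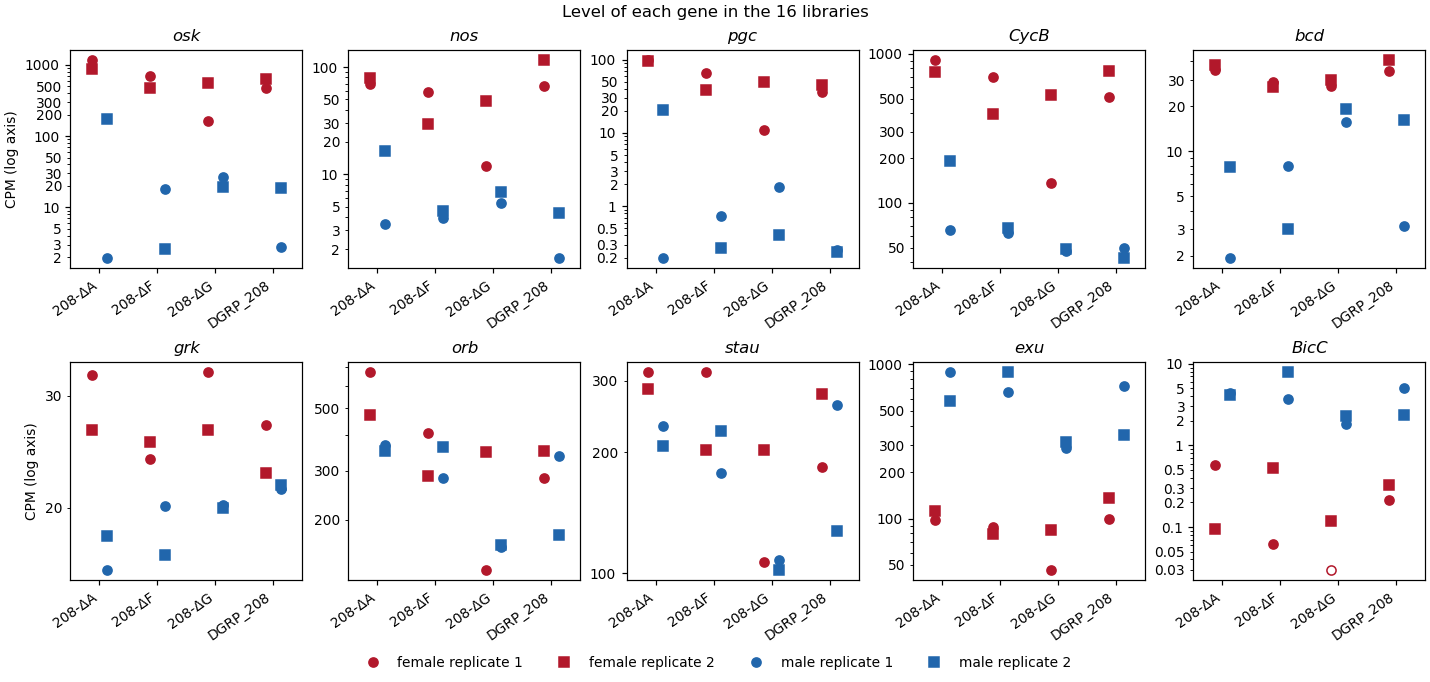
Level of each of the 10 genes in the 16 libraries, in CPM on a log axis, by line on the horizontal axis, with females in red left of males in blue and circles and squares for replicates 1 and 2. The open circle for *BicC* marks 0 reads. *208-ΔA* male replicate 2 stands above the other males for *osk* (175 CPM), *nos* (16.6 CPM), *pgc* (20.5 CPM) and *CycB* (192 CPM), and *208-ΔG* female replicate 1 stands below the other females for 8 of the genes, *BicC* included.

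Per length, the mean levels over the 8 female libraries fell in the order *osk* (212 RPKM), *CycB* (193), *pgc* (45.5), *stau* (44.0), *orb* (38.7), *exu* (28.3), *nos* (25.5), *grk* (15.8) and *bcd* (12.9). The ranges of neighbours in this order overlapped in every case, that of *CycB* and *pgc* only through *208-ΔG* female replicate 1. Without that library *CycB* ran between 129 and 300 RPKM and *pgc* between 30.0 and 81.9 RPKM. In males the order began with *exu* (179 RPKM), *stau* (33.5), *orb* (28.9), *CycB* (23.7), *grk* (11.2) and *osk* (11.2), and ended with *bcd* (3.70), *pgc* (2.51) and *nos* (2.49). There the *exu* range did not overlap with that of *stau*, nor that of *CycB* with that of *grk*. The male means of *osk* and *pgc* rest on *208-ΔA* male replicate 2. Over the other 7 male libraries the means were 4.35 RPKM for *osk*, 3.79 for *bcd*, 1.83 for *nos* and 0.460 for *pgc*, which put *pgc* below *nos*.

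The sexes differed in most of these RNAs. Averaged over the 4 lines, 6 of the 10 genes were called higher in females than in males and 2 lower (edgeR quasi-likelihood test, called where the Benjamini-Hochberg value over 16212 genes was under 0.05). Among all genes tested, 19% were higher and 20.8% were lower. *pgc* had the largest log2 fold change of females over males, 5.50 ± 0.79 (SE, adjusted p = 0.00018), followed by *osk* at 4.74 ± 0.82 (adjusted p = 0.000677), *nos* at 3.38 ± 0.41 (adjusted p = 5.74e-05) and *CycB* at 3.09 ± 0.32 (adjusted p = 1.53e-05). These are the RNAs of the germ plasm. Without both libraries that held transcripts of the other sex the same comparison gave 7.03 for *pgc*, 6.19 for *osk*, 3.89 for *nos* and 3.45 for *CycB*, and again called 8 of the 10. *bcd* was higher in females by 1.98 ± 0.37 (adjusted p = 0.00129), and *grk* by only 0.49 ± 0.10 (adjusted p = 0.00273). *exu* was lower in females by the log2 fold change of -2.60 ± 0.20 (adjusted p = 2.12e-06). The *BicC* stretch was also lower in females, at -4.17 ± 0.53 (adjusted p = 7.97e-05). *orb* stood at 0.41 ± 0.21 (adjusted p = 0.159) and *stau* at 0.41 ± 0.19 (adjusted p = 0.127), short of a call, though both were called with scaling to library size only (adjusted p = 0.0409 for *orb* and 0.0105 for *stau*).

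The calls were fewer in DGRP_208, with 2 libraries of each sex, than in the deletion lines, with 6 of each. No test compared the calls between them. In the deletion lines 6 of the 10 genes were higher in females and 2 lower, against 15.3% and 19.1% of all genes. In DGRP_208, 4 were higher (*pgc* at 7.35 ± 1.74, *osk* at 5.67 ± 1.71, *nos* at 4.93 ± 0.89 and *CycB* at 3.795 ± 0.65) and 2 lower (*exu* at -2.19 ± 0.40 and *BicC* at -3.79 ± 1.04), against 8.05% and 12.7% of all genes. *bcd* had a log2 fold change of 1.98 ± 0.43 in the deletion lines and 1.96 ± 0.75 in DGRP_208, where it did not pass (adjusted p = 0.0915). *grk* stood at 0.59 ± 0.12 in the deletion lines and 0.20 ± 0.21 in DGRP_208.

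Male levels of *osk*, *bcd*, *nos* and *pgc* lay near or below the background, whereas those of *CycB* lay above it. In the 7 male libraries other than *208-ΔA* male replicate 2, *osk* was at 1.02 to 3.05 times the chemoreceptor median of its own library, *bcd* at 1.32 to 2.50 times, and *nos* at 0.698 to 2.54 times. *pgc* was at 0.0737 to 0.494 times and thus under it in all 7. *CycB* was at 5.17 to 37.6 times. The male libraries with the highest chemoreceptor levels, both of *208-ΔG* and DGRP_208 male replicate 2 (3.45 to 4.22 RPKM), also had the highest *bcd* levels (15.8, 19.1 and 16.3 CPM), against 1.93 to 8.0 CPM in the other 5. In *208-ΔA* male replicate 2 the values were 64.3 times for *osk*, 18.4 times for *pgc* and 7.69 times for *nos*. In males *grk* stayed at 3.86 to 16.7 times the chemoreceptor median and *exu* at 28.7 to 468 times.

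**Figure D2:**
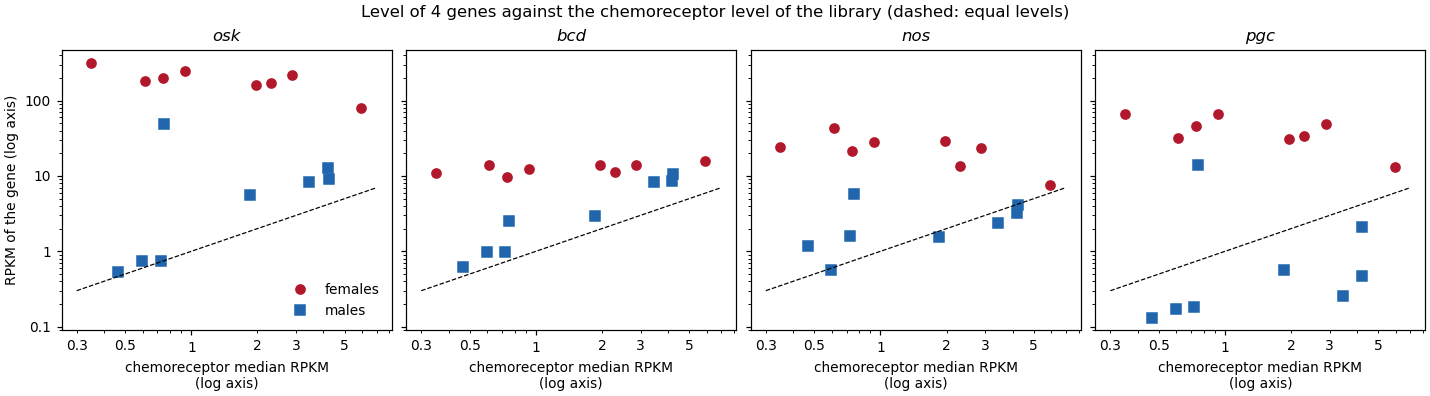
Level of *osk*, *bcd*, *nos* and *pgc* against the median chemoreceptor level of the same library, both in RPKM of counted reads on log axes, for 8 female (red circles) and 8 male (blue squares) libraries. The dashed line marks equal levels. Male points for *osk* lie at 1.02 to 3.05 times the line and those for *bcd* also above it, except *208-ΔA* male replicate 2 for *osk* (64.3 times the chemoreceptor median), and female points lie well above it for *osk*.

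No gene of the 10 passed the test between deletion females and DGRP_208 females (edgeR, 0 of 10, and 0 at an unadjusted p under 0.05), against 0.13% of all genes. DESeq2 and limma-voom also called none. *nos* had the lowest log2 fold change, -0.98 ± 0.58 (SE), with 49.5 ± 25.2 CPM in deletion females and 91.5 ± 35.7 CPM in DGRP_208 females (SD, n = 6 and 2). Without DGRP_208 female replicate 2, which holds 117 CPM, the value was -0.41, without *208-ΔG* female replicate 2 it was -1.42, and without both libraries that held transcripts of the other sex it was -0.82. *exu* followed at -0.50 ± 0.30, *bcd* at -0.30 ± 0.58 and *CycB* at -0.27 ± 0.47. *stau* was at -0.01 ± 0.32, *osk* at 0.12 ± 1.15, *grk* at 0.16 ± 0.17, *orb* at 0.20 ± 0.35 and *pgc* at 0.40 ± 1.05. The 10 genes had a median of -0.14, and all 16212 genes one of -0.01. Each SE rests on 1 estimate of spread per gene over the 16 libraries of both sexes. For *osk* and *pgc* that takes in the *208-ΔA* males, at 1.96 and 175 CPM and at 0.198 and 20.5 CPM. For *bcd* it takes in males at 1.93 to 19.1 CPM, where females had 26.8 to 41.0 CPM. These SEs are thus not the spread between females alone. With 2 libraries in DGRP_208 and SEs over 1 for *osk* and *pgc*, this test could not detect changes of 2-fold in these 2 RNAs. The CPM of deletion and DGRP_208 females overlapped for 10 of the 10 genes, while 2.92% of all genes were lower in every deletion female.

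In males, 0 of the 10 genes passed (edgeR, with 0 at an unadjusted p under 0.05, and 0 by DESeq2 and limma-voom), against 0.0617% of all genes. The log2 fold changes were 2.85 ± 1.44 for *pgc*, 1.36 ± 1.26 for *osk*, 1.09 ± 0.67 for *nos* and 0.68 ± 0.50 for *CycB*. These 4 are the genes for which *208-ΔA* male replicate 2 stood far above the other males. Without that library *pgc* was at 0.91, *osk* at -0.58, *nos* at 0.49 and *CycB* at 0.31, and without DGRP_208 male replicate 2 *osk* was at 3.28. *bcd* was at -0.32 ± 0.58, *grk* and *stau* both at -0.22 (SE 0.17 and 0.31), *orb* at 0.05 ± 0.35 and *exu* at 0.05 ± 0.31. *grk* was the only one of the 10 whose levels did not overlap, with 15.97 to 20.2 CPM in the deletion males and 21.4 and 21.7 CPM in DGRP_208 males. Of all genes, 1.54% were lower in every deletion male.

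**Figure D3:**
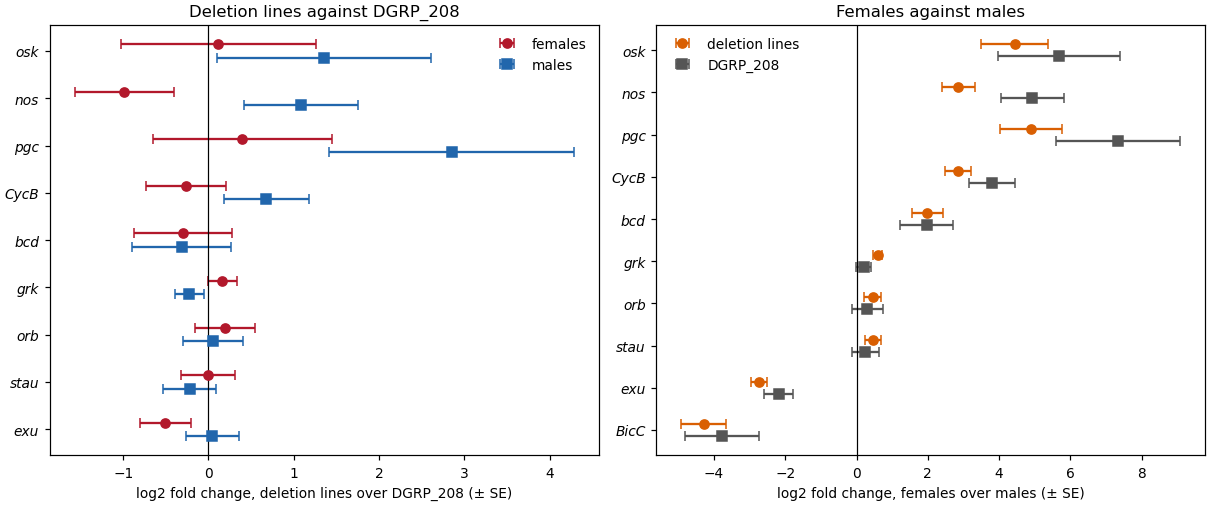
Left, log2 fold change with its SE of the deletion lines over DGRP_208 in females (red) and males (blue) for 9 genes. Right, log2 fold change with its SE of females over males in the deletion lines (orange) and in DGRP_208 (grey) for the 10 genes. The largest value on the left is that of *pgc* in males (2.85), and on the right *pgc*, *osk*, *nos* and *CycB* lie between 2.85 and 7.35 in both sets of lines.

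The deletion effect was not shown to differ between the sexes for any of the 10 genes (0 of 10, against 0% of all genes). The only difference with an unadjusted p under 0.05 was that of *nos*, at -2.07 ± 0.89 for females minus males (adjusted p = 0.9999, edgeR). An unadjusted p under 0.05 was met by 411 of the 16212 genes. The male *nos* values in it include the 16.6 CPM of *208-ΔA* male replicate 2. The difference of *pgc* was -2.45 ± 1.71 and that of *CycB* -0.95 ± 0.68. Averaged over the sexes, again 0 of 10 passed (0 at an unadjusted p under 0.05, and 0 by DESeq2 and limma-voom), against 0.117% of all genes.

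The 3 deletion lines were also compared with DGRP_208 one by one. *orb* was at 0.86 ± 0.43 in *208-ΔA* females, 0.13 ± 0.43 in *208-ΔF* females and -0.40 ± 0.43 in *208-ΔG* females relative to DGRP_208 females. *nos* was at -0.30 ± 0.75 in *208-ΔA* females, -1.05 ± 0.76 in *208-ΔF* females and -1.61 ± 0.77 in *208-ΔG* females. Taken singly, 0 of 10 genes passed in *208-ΔA*, *208-ΔF* or *208-ΔG* females (edgeR), against 0.0493%, 0% and 0% of all genes, and at an unadjusted p under 0.05 there was 1, *exu* in *208-ΔG* females (-0.85 ± 0.39), where 3142 of the 16212 genes did so. In males 0 of 10 passed in each of the 3 lines, against 0.0432%, 0.0308% and 0% of all genes. An unadjusted p under 0.05 was met there by *pgc* (5.37 ± 1.63), *CycB* (1.48 ± 0.60) and *nos* (1.74 ± 0.79) in *208-ΔA* males, where 1583 of the 16212 genes met it, and by *stau* in *208-ΔG* males (-0.88 ± 0.39), where 1984 did. The *208-ΔA* values rest on the male library with yolk and vitelline membrane transcripts. In the other *208-ΔA* male library *pgc* stood at 0.198 CPM, below the 0.258 and 0.236 CPM of DGRP_208 males, *nos* at 3.45 CPM lay between the DGRP_208 values of 1.66 and 4.34 CPM, and *CycB* at 66.2 CPM lay above 49.6 and 42.8 CPM.

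Whether the 4 lines differ when averaged over the sexes is asked by the term for Line, which passed for 0 of the 10 genes, against 0.191% of all genes. The adjusted p was 0.0599 for *pgc*, 0.0606 for *orb*, 0.0635 for *exu*, 0.0662 for *stau* and 0.0848 for *CycB* (edgeR). These 5 genes had an unadjusted p under 0.05, as did 8165 of the 16212 genes. The term for Line by Sex passed for 0 of 10, against 0%, with none at an unadjusted p under 0.05. Between deletion lines in females, 0 of 10 passed in any of the 3 pairs (0% of all genes in each). The smallest adjusted p was that of *orb* for *208-ΔG* over *208-ΔA* females (-1.26 ± 0.43, adjusted p = 0.0606), and *stau* (-0.96 ± 0.39) and *CycB* (-1.33 ± 0.59) also had an unadjusted p under 0.05 in that pair, as did 8488 of the 16212 genes.

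Ratios within a library do not depend on scaling between libraries. For each 100 reads of *osk*, *nos* had 5.95 and 8.98 reads in *208-ΔA* females, 8.60 and 6.33 in *208-ΔF* females, 7.49 and 8.54 in *208-ΔG* females, and 14.1 and 18.4 in DGRP_208 females. All 6 deletion libraries thus lay below both DGRP_208 libraries, *208-ΔG* female replicate 1 included. In that library *nos* was near background, at 1.28 times the chemoreceptor median, against 5.90 to 69.7 times in the other females. *CycB* had 77.6 to 102 reads for each 100 of *osk* in deletion females and 109 and 122 in DGRP_208 females. *pgc* did not separate the groups, with 6.76 to 10.9 reads in deletion females and 7.75 and 7.15 in DGRP_208 females. Of all genes, 2.31% were lower per *osk* read in every deletion female, as were 2 of the other 9 genes here. *nos* was also lower relative to *stau*, *orb*, *pgc* and *CycB* in every deletion female, *osk*, *orb* and *pgc* were higher relative to *CycB*, and *stau* and *orb* were higher relative to *exu*. These are 10 of the 36 pairs of the genes other than *BicC*, where 5.43% of all pairs of genes with a read in every female library did not overlap. These pairs share genes and were picked out after their values were seen, so they carry no test.

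**Figure D4:**
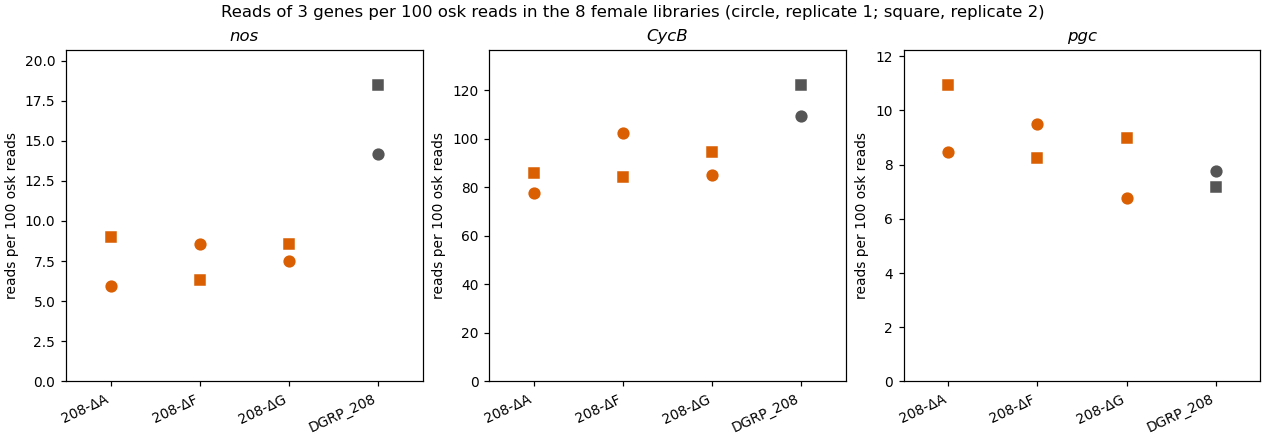
Reads of *nos*, *CycB* and *pgc* for each 100 reads of *osk* in the 8 female libraries, by line, with deletion lines in orange and DGRP_208 in grey. The 6 deletion libraries lie between 5.95 and 8.98 for *nos*, below the DGRP_208 values of 14.1 and 18.4, whereas for *pgc* the groups overlap.

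Other genes of the oocyte also differed between the sexes. In this comparison, averaged over the 4 lines, 19% of all genes were called higher in females and 20.8% lower. Of 24 tested genes for localization and translational control of oocyte RNAs, 17 were higher in females than in males. The largest log2 fold changes were those of *swa* (3.44 ± 0.55), *wisp* (3.11 ± 0.55), *otu* (3.04 ± 0.51) and *me31B* (2.32 ± 0.33), and the others were *smg*, *tral*, *sqd*, *fs(1)K10*, *brat*, *mago*, *Hrb27C*, *tsu*, *egl*, *Pabp2*, *pum*, *BicD* and *btz* (0.38 to 2.24). In the same list 3 were lower in females, *orb2* at -2.65 ± 0.19, *capu* at -1.61 ± 0.13 and *spir* at -0.79 ± 0.13. *cup*, which represses *osk* translation, had 0 counts in every library and could not be compared. Why it had 0 counts was not tested, so they are not read as absence of *cup* RNA. Of 11 germ plasm and germ line genes, 8 were higher in females, namely *dhd* (4.64 ± 0.73), a thioredoxin of the egg, *zpg* (3.55 ± 0.43), *vas* (2.89 ± 0.32), *gcl*, *ovo*, *csul*, *bam* and *Sxl*, and *bgcn* was lower (-1.41 ± 0.37). Of 23 maternal axis genes, 13 were higher and 0 lower, with *fs(1)ph* (2.94 ± 0.60), *clos* (2.79 ± 0.35), *fs(1)N* (2.78 ± 0.46) and *tor* (1.98 ± 0.28) first, then *ndl*, *trk*, *Tl*, *hb*, *cad*, *spz*, *pll*, *tub* and *dl* (0.30 to 1.61). Of 21 genes for meiosis, egg activation and the maternal cell cycle, 17 were higher. They were *gnu* (3.495 ± 0.37), *mtrm* (3.33 ± 0.45), *mos* (3.21 ± 0.37), *alphaTub67C* (3.16 ± 0.52), *CycA*, *stg*, *gwl*, *Cdk1*, *CycE*, *png*, *nod*, *CycB3*, *Cks30A*, *cort*, *polo*, *fzy* and *ald*. *twe* (-0.92 ± 0.12), *Wee1* (-0.72 ± 0.09) and *endos* (-0.68 ± 0.16) were lower.

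Between deletion females and DGRP_208 females, 0 genes of these 4 lists passed (edgeR), and *vls*, *fzy* and *CycE* had an unadjusted p under 0.05, as did 613 of the 16212 genes. In the localization list 6 genes had a positive and 18 a negative log2 fold change, with a median of -0.10 and the smallest p for *Fmr1* (-0.35 ± 0.23), *mago* (-0.38 ± 0.27), *Tm1* (-0.41 ± 0.32) and *smg* (-0.37 ± 0.39). In the list for meiosis and egg activation 1 was positive and 20 negative, with a median of -0.30, and the smallest p belonged to *fzy*, an activator of the anaphase-promoting complex (-0.82 ± 0.28), *CycE* (-0.66 ± 0.29), *ald* (-0.49 ± 0.25) and *CycB3* (-0.42 ± 0.26). The germ plasm list had a median of -0.06, with *vls* at -0.88 ± 0.28, *bam* at 0.41 ± 0.50, *csul* at -0.23 ± 0.28 and *gcl* at -0.23 ± 0.30. The axis list had a median of 0.01, with *rho* at 0.31 ± 0.14, *cact* at -0.37 ± 0.30, *hb* at -0.24 ± 0.25 and *Tl* at -0.28 ± 0.32. The median of all 16212 genes was -0.01. Genes of a list were measured in the same libraries, so the counts of signs above carry no test. In males 0 genes of the 4 lists passed either (edgeR). An unadjusted p under 0.05 was met there by 2, and by 477 of the 16212 genes. The medians were 0.07, 0.18, 0.09 and -0.05 for localization, meiosis, germ plasm and axis.

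Markers of follicle cells were read alongside, as were the yolk protein genes, which both fat body and follicle cells express. The 7 chorion genes, made by follicle cells of late egg chambers, had a summed level of 250 to 861 CPM in deletion females against 858 and 2835 CPM in DGRP_208 females. Their median log2 fold change was -2.02, with 0 of 7 called and 3 at an unadjusted p under 0.05 (edgeR). These were *Cp36* (-2.11 ± 0.52), *Cp19* (-2.94 ± 0.94) and *Cp38* (-1.83 ± 0.61), and *Cp7Fb*, with the next smallest p, was at -1.33 ± 0.62. Of all genes in this comparison, 0.13% were called and 613 of 16212 had an unadjusted p under 0.05. The 6 vitelline membrane genes had a median of -0.49 and the 3 yolk protein genes one of -1.14, with 0 called and 0 at an unadjusted p under 0.05 in each. The part of follicle cells and fat body in the values of the oocyte RNAs was not tested.

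By the root mean square difference of centred log2 CPM over the 16 libraries, the genes whose profile was most like the mean of the 10 were *rpk* (0.19), *nclb* (0.23), *Rrp5* (0.24), *armi* (0.25) and *CG4949* (0.26). The 10 genes themselves lay 0.74 (*orb*) to 2.85 (*BicC*) from that mean.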

How the data were processed

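RNA of 16 samples of whole flies was depleted of ribosomal RNA and sequenced. The authors filtered reads with AfterQC, aligned them to the *D. melanogaster* genome (dm6, reference v6.13) with GSNAP, and deposited raw counts of uniquely aligned reads per gene from featureCounts of Subread. Versions of GSNAP and Subread and the strand setting are not given in the sources used here. Groups were taken from genotype and sex, 2 libraries each. The study calls replicates biological but names no separate cultures, so p-values measure the spread between these libraries only. Replicates were compared by chi-square over genes, and none agreed within sampling noise (smallest chi-square per degree of freedom 18.5).

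Genes whose median count reached 2 (16212 of 17490) were fitted in edgeR 4.0.16 (R 4.3.3) with TMM factors, 8 group means, 8 residual degrees of freedom, quasi-likelihood F-tests and Benjamini-Hochberg adjustment over all genes, and called at an adjusted p under 0.05. SEs are the size of the log2 fold change over the square root of F. The spread behind F is 1 estimate per gene, shared by the libraries of both sexes. CPM uses TMM library sizes, and RPKM divides CPM by the exonic length in kilobases. The 10 genes, gene lists and tests were chosen with earlier results of these data known. All 10 genes are described. From the other lists, the 4 genes of smallest p in deletion females and every called gene are named, and of the lists that mark other cell types only those the text needs. The genes most alike are the 5 with the smallest root mean square difference from the mean profile, with a prior count of 2. Coordinates are those of dm6 in the Ensembl annotation. Alternatives were an adjusted p under 0.1, other scaling, filters and tools (DESeq2 1.42.0, limma 3.58.1), a linear model on length-scaled values, a chemoreceptor covariate, a replicate block, 1 sex alone and 1 library left out, and, added after the data were seen, both libraries with transcripts of the other sex left out. The fit was also run on simulated counts, only for deletion females against DGRP_208 females. The simulation held no library with transcripts of the other sex or raised background, so it does not cover those.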

Additional observations from a re-analysis of the deposited data

Results flagged for a closer look

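Values of the 6 deletion libraries of a sex were searched for 1 library far from the others, in 20 sets of 6. There were 4 such values, all in *208-ΔA* male replicate 2. Chance gives about 1 in 20 for a single set. The sets share libraries, so the 4 values are not separate events and carry no test. *osk* stood at 175 CPM there against 1.96 to 26.9 CPM in the other deletion males, and *CycB* at 192 CPM against 47.7 to 67.8 CPM. *pgc* stood at 20.5 CPM against 0.198 to 1.81 CPM, and *nos* at 16.6 CPM against 3.45 to 6.83 CPM. At a summed chorion level of 16.2 CPM the same library was within the range of the other males. Its summed yolk and vitelline membrane levels were 1338 and 209 CPM, the highest of the 8 males. What put these transcripts in the library was not tested.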

How the results depend on the processing

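The count of the 10 genes called remained 0 in females, in males and averaged over the sexes under all alternatives run, and 8 to 10 were called between the sexes. The replicate numbers did not pair the samples (correlation of deviations between groups -0.77 to 0.60 over 28 group pairs), and with the replicate block *nos* in females was at -0.93. The *stau* value in deletion females, -0.01, changed sign with DESeq2 size factors (0.030), library size only (0.099), no filter (0.0012), filterByExpr (0.0012), the chemoreceptor covariate (0.15), females alone (0.00074), DESeq2 (0.030), length-scaled values (0.077) and without both libraries of mixed sex (0.13). *osk* in females turned with the covariate (-0.064) and limma-voom (-0.0048), and in males without both mixed libraries (-0.58). Leaving out 1 library at a time gave, in females, -0.28 to 0.43 for *stau*, -0.26 to 0.46 for *osk*, -0.69 to 0.17 for *CycB*, -0.084 to 0.47 for *orb* and -0.095 to 0.67 for *pgc*. In males it gave -0.58 to 3.28 for *osk*, -1.16 to 1.29 for *bcd*, -0.40 to 0.57 for *exu*, -0.35 to 0.49 for *orb* and -0.66 to 0.28 for *stau*. None of these values passed the test in any setting. Counts over all genes moved more. In females 21 were called, against 61 with the covariate, 67 by DESeq2, 0 in females alone, 4 without both mixed libraries, and 2 (without DGRP_208 female replicate 2) to 25 without 1 library. In males 10 were called, against 6 with the replicate block, 24 with the covariate, 61 by DESeq2, 3 in males alone, 3 without both mixed libraries, and 2 (without DGRP_208 male replicate 1) to 10 without 1 library. Averaged over the sexes 19 were called, against 37 at an adjusted p under 0.1, 45 by library size only, 85 with the covariate, 99 by DESeq2, 12 without both mixed libraries, and 10 to 22 without 1 library. *orb* and *stau* were also called between the sexes with the covariate (adjusted p = 0.0302 and 0.00491), *orb* without *208-ΔG* female replicate 1 (adjusted p = 0.0415) and *stau* without DGRP_208 male replicate 1 (adjusted p = 0.0356). The causes of these shifts were not tested. Male *pgc*, at or under 1.81 CPM in 7 libraries, rests there on 5 to 79 reads and lay under the chemoreceptor median in all 7.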
